A study of Mus musculus with 30 samples.

Results

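Chemokines are small secreted proteins that bind G protein-coupled receptors on leukocytes and steer them along gradients into tissues. Blood monocytes use a pair of such axes: Ccr2, which binds Ccl2 and Ccl7 and brings inflammatory monocytes out of the bone marrow and into injured tissue, and Cx3cr1, the receptor of Cx3cl1 (fractalkine), which patrolling monocytes and many tissue macrophages carry. Injured or regenerating skeletal muscle is known to draw monocytes through these axes, and they become macrophages within it. The 10 genes described here are Cx3cl1, Cx3cr1, Ccl2, Ccr2, Ccl7, Ccl8, Ccl6, Ccl9, Cxcl10 and Cxcl12, found by their symbols among the 36103 genes of the count table, where each symbol had 1 row.

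RNA was sequenced from whole liver, heart, diaphragm and gastrocnemius of mice aged 5 weeks, which were either Mtm1-/y or wild-type (WT) littermates. Mtm1-/y mice are a knock-out model of X-linked myotubular myopathy, and lack a phosphoinositide phosphatase that the gene encodes. Both genotypes were on a pure 129Pas background, and the knock-out was constitutive. Gastrocnemius and heart each had 4 WT and 4 Mtm1-/y libraries, the diaphragm had 4 WT and 3 Mtm1-/y, and the liver had 3 WT and 4 Mtm1-/y. The labels give 1 library per numbered sample and do not say which animal each came from, so p-values measure the spread between these samples.

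Levels are given in CPM, a gene's read count relative to the total of its library, with the totals scaled by TMM over all 30 libraries. A gene rose or fell where the adjusted p (edgeR, quasi-likelihood F test within a tissue, Benjamini-Hochberg adjustment over all genes tested) was under 0.05. Library totals lay between 24873817 and 44289343 counts, and Mtm1 itself was at 3.49 to 8.19 CPM in the Mtm1-/y libraries against 15.9 to 26.9 CPM in WT. Defining markers were high in the labelled tissues, where 6 skeletal muscle fibre genes summed to 113605 to 208934 CPM in the gastrocnemius, 6 cardiomyocyte genes to 30142 to 52596 CPM in the heart, and 7 hepatocyte genes to 149931 to 191676 CPM in the liver. The diaphragm libraries stood apart among themselves, since the same 7 hepatocyte genes summed to 20159 to 37101 CPM in WT replicates 1, 2 and 4 and in Mtm1-/y replicate 2, against 358 to 2203 CPM in the other 3.

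Several of the genes lie in clusters (GENCODE M21 annotation, mm10). Ccl2 (chr11:82035571-82037453, plus strand), Ccl7 and Ccl8 lie in that order on the same strand. Between Ccl2 and Ccl7 there are 8.3 kb, and between Ccl7 and Ccl8 67.7 kb, which hold Ccl11 and Ccl12. Ccl6 and Ccl9 lie 9.2 kb apart on the minus strand of the same chromosome (Ccl9 chr11:83572919-83578636). The receptor genes Ccr2 (chr9:124101950-124113557) and Cx3cr1 share chromosome 9 at a distance of 4032.1 kb. Of all runs of 50 bases in their transcripts, the length of a read, none was shared with another gene for 7 members, and 0.269% were shared for Cx3cr1, 1.91% for Ccr2 and 1.97% for Ccl9. Cxcl10 lies opposite Art3, and the outer limits of Cx3cr1 enclose 5 other protein-coding genes, Xirp1 among them. The strand setting of the counting step is not given in the sources used here.

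The stretches of 250 bases before the annotated start are shown for 3 members, since Cxcl10 had the largest fold change below, Cx3cl1 rose in the gastrocnemius without overlap and Cxcl12 did not pass the test. RefSeq (GRCm38.p6) gave such a stretch for 8 of the 10 members. Each reads 5′ to 3′ on the strand of its gene, from chr5:92348890-92349139 (minus) for Cxcl10, chr8:94771930-94772179 (plus) for Cx3cl1 and chr6:117168285-117168534 (plus) for Cxcl12, and capitals mark matches to the NF-kB consensus or to the letters GAAANNGAAA, the core of the interferon-stimulated response element, searched on both strands.
Cxcl10: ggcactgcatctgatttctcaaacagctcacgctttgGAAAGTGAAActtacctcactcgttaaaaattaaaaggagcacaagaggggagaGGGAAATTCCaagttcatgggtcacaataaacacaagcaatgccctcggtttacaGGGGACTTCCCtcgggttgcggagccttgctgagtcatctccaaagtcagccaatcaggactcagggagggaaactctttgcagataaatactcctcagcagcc
Cx3cl1: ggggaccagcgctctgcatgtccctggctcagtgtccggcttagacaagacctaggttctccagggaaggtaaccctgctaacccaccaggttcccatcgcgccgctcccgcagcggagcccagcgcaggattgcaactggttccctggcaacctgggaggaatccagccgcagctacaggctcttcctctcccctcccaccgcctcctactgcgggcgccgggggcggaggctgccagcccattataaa
Cxcl12: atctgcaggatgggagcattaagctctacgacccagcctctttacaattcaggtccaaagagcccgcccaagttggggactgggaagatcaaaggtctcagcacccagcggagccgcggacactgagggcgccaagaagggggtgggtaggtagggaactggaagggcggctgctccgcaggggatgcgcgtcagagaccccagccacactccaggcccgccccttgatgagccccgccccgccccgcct
Cxcl10 held 1 GAAANNGAAA match, at bases -213 to -204 from its start, and NF-kB matches at -159 to -150 and at -104 to -94, where 3 of them overlap. Ccl9 had 1 NF-kB match on the opposite strand, and in the other 6 members neither set of letters occurred in this window. Among 27025 promoters of the same length, 7.01% held an NF-kB match, 3.04% held GAAANNGAAA and 0.163% held both. A match describes these letters and is not a measured binding site.

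In the gastrocnemius 8 of the 10 genes rose in Mtm1-/y mice, and none fell. Of all 15456 genes tested there, 14.1% rose and 14.9% fell. Each of the 8 rose by more than 1 on the log2 scale, as did 4.84% of all genes, and for each of them the lowest Mtm1-/y library was above the highest WT library, as was the case for 14.7% of all genes. The median log2 fold change of the 10 genes was 2.60, against 0.02 over all genes tested. DESeq2 and limma voom called the same 8, and called 12.9% and 14.2% of all genes as higher. The 10 genes were chosen with earlier results of these data known, so the shares over all genes are context and not a test of the set. Cxcl10, Ccl2 and Ccl7 had at most 3, 9 and 8 counts in a WT library. They passed the filter on low counts through the Mtm1-/y libraries, where they were high. In whole muscle, more cells that carry a transcript and more transcript per cell cannot be told apart.

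**Figure D1:**
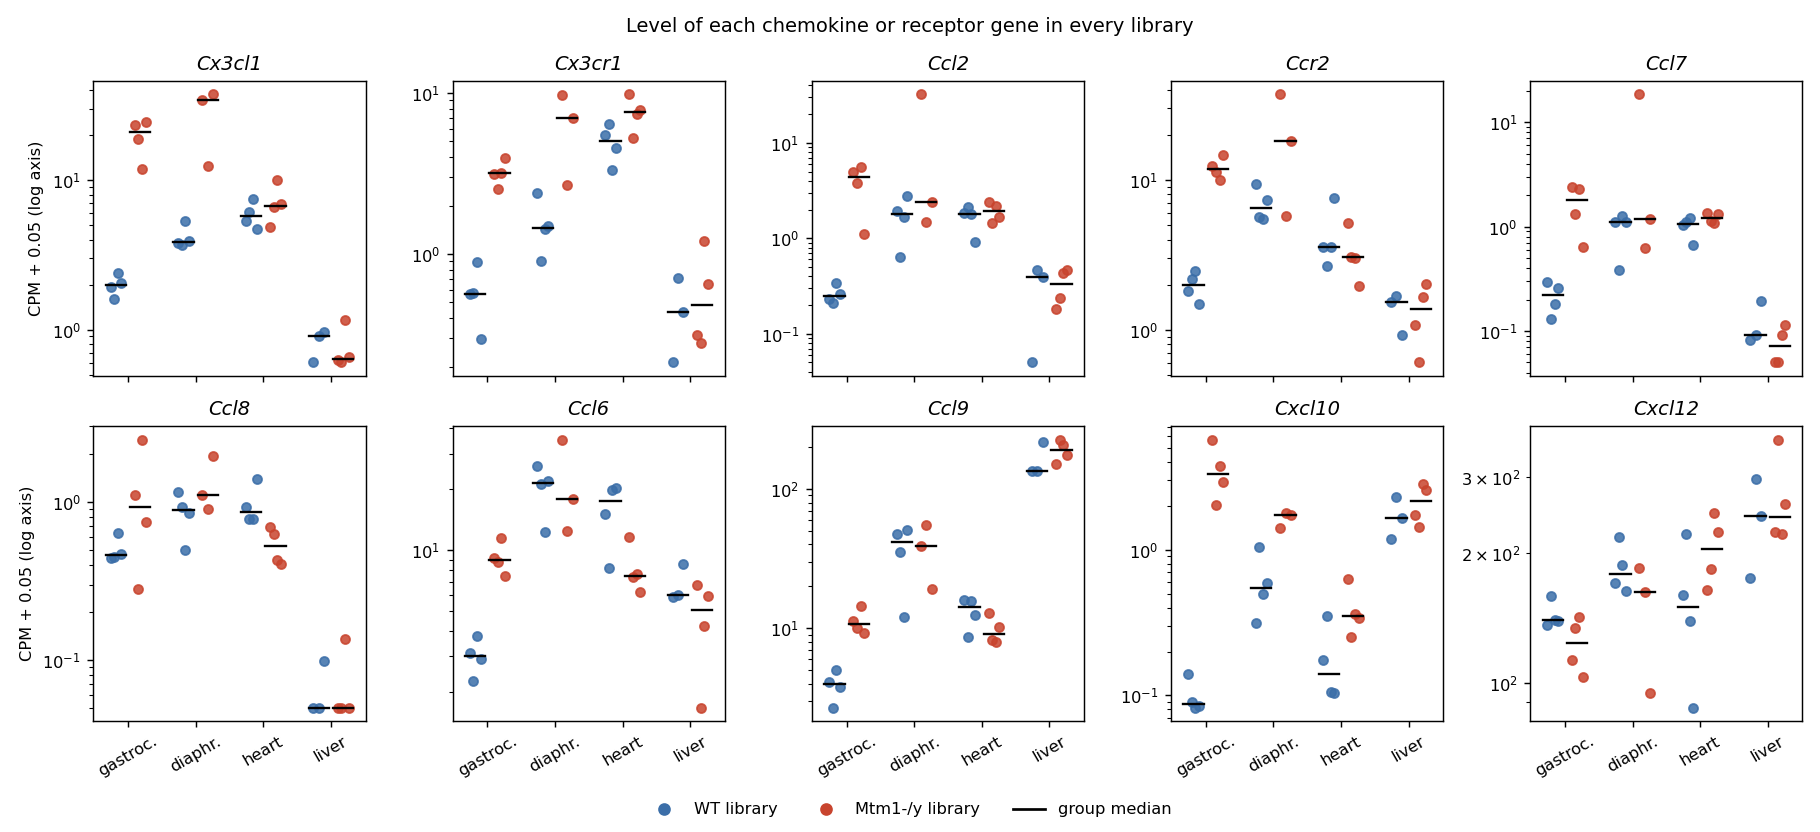
Level of each of the 10 genes in every library, in CPM plus 0.05 on a log axis, by tissue, with WT in blue, Mtm1-/y in red and the group median as a black line. In the gastrocnemius the red points of 8 genes lie above all blue points, while Ccl8 and Cxcl12 overlap.

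The fractalkine axis rose on both sides. Cx3cl1, a membrane-bound chemokine that can be shed as a soluble attractant, was at 1.87, 1.56, 2.34 and 2.00 CPM in the WT gastrocnemius libraries and at 23.3, 18.9, 11.9 and 24.4 CPM in the Mtm1-/y libraries. The groups were far apart, the lowest Mtm1-/y library being replicate 3. The log2 fold change was 3.34 ± 0.24 (SE, 4 libraries a group; edgeR adjusted p = 4.4e-05), a 10.1-fold rise. The receptor Cx3cr1 was at 0.514, 0.520, 0.843 and 0.245 CPM in WT and at 3.09, 2.5, 3.15 and 3.87 CPM in Mtm1-/y. All 4 Mtm1-/y libraries lay above WT, with a log2 fold change of 2.57 ± 0.31 (edgeR adjusted p = 0.00051).

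The Ccr2 axis rose as well. Ccl2, the main attractant of inflammatory monocytes, was at 0.181, 0.160, 0.292 and 0.210 CPM in WT, from 4 to 9 counts a library, and at 4.88, 3.74, 5.52 and 1.05 CPM in Mtm1-/y. Replicate 4 was the lowest Mtm1-/y library and still above every WT library. Its log2 fold change was 4.15 ± 0.53 (edgeR adjusted p = 0.00058). Ccl7, another ligand of Ccr2, was at 0.242, 0.080, 0.130 and 0.210 CPM in WT and at 2.36, 1.28, 2.25 and 0.581 CPM in Mtm1-/y, replicate 4 again being the lowest. It rose by a log2 fold change of 3.25 ± 0.51 (edgeR adjusted p = 0.0016). Ccr2 itself was at 1.75, 2.12, 2.43 and 1.44 CPM in WT and 12.3, 11.2, 9.86 and 14.5 CPM in Mtm1-/y, with little spread in either group. The log2 fold change was 2.64 ± 0.18 (edgeR adjusted p = 4.2e-05), and by p Ccr2 was rank 23 and Cx3cl1 rank 26 of all genes tested.

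Ccl8, another gene of the Ccl2 cluster and a further monocyte attractant, did not pass. It was at 0.393, 0.400, 0.584 and 0.420 CPM in WT and at 1.06, 0.230, 2.43 and 0.698 CPM in Mtm1-/y. Replicate 2 of Mtm1-/y was below all WT libraries while the other 3 were above them. The log2 fold change was 1.31 ± 0.58, with a 95% interval from 0.01 to 2.60 (edgeR adjusted p = 0.12). It passed without Mtm1-/y replicate 2 (1.64, edgeR adjusted p = 0.023) and when library totals set the scale (1.65, edgeR adjusted p = 0.038).

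Ccl6 and Ccl9 are paired CC chemokines that myeloid cells express and that bind Ccr1. Ccl6 was at 3.05, 2.20, 3.70 and 2.84 CPM in WT and at 9.09, 8.67, 11.4 and 7.44 CPM in Mtm1-/y. Ccl9 was at 4.08, 2.64, 4.96 and 3.75 CPM in WT and at 11.3, 9.98, 14.4 and 9.25 CPM in Mtm1-/y. The order of the 4 libraries was the same for the neighbours within each genotype, and neither gene overlapped between genotypes. They rose by similar amounts, with log2 fold changes of 1.64 ± 0.18 for Ccl6 (edgeR adjusted p = 0.00034) and 1.55 ± 0.20 for Ccl9 (edgeR adjusted p = 0.00065).

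Cxcl10, an interferon- and NF-kB-inducible attractant of cells that carry Cxcr3, showed the largest fold change of the 10. It was nearly undetected in WT gastrocnemius, with 1 to 3 counts a library (0.0907, 0.0400, 0.0324 and 0.0350 CPM), against 5.66, 1.97, 3.69 and 2.88 CPM in Mtm1-/y. Summed over libraries, 500 counts stood against 6, a ratio of 71.6 with an exact 95% interval of 32.7 to 196 that covers counting error only. The fitted log2 fold change was 6.03 ± 0.48 (edgeR adjusted p = 8.2e-05). Cxcl12, a constitutive stromal chemokine that retains Cxcr4-bearing cells, was at 136, 159, 140 and 139 CPM in WT and 113, 134, 142 and 103 CPM in Mtm1-/y. The groups overlapped, and the log2 fold change was -0.21 ± 0.11, with a 95% interval from -0.45 to 0.03 (edgeR adjusted p = 0.17). Scaled by library totals alone, which shifted the median of all genes in this tissue from 0.02 to 0.35, Cxcl12 turned to 0.13 while the 8 genes still rose.

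On a scale that allows genes to be compared, CPM per kilobase of exon, Cxcl12 was the most abundant of the 10 in the gastrocnemius of both genotypes, at a mean of 17.5 in WT and 15.1 in Mtm1-/y. In WT the next were Ccl6 at 1.64 and Ccl9 at 1.27, and Cxcl10 was last at 0.022. In Mtm1-/y the level of Cx3cl1 was 4.99, close to Ccl6 at 5.09, and Cxcl10 reached 1.58.

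In the diaphragm none of the 10 genes passed edgeR's test, as was true of nearly all genes (0.0119% of 16796 passed). At an unadjusted p under 0.05, 6 of the 10 were higher in Mtm1-/y, against 6.58% of all genes. DESeq2 called Cx3cl1, Cx3cr1 and Cxcl10 as higher (1.70% of all genes were called higher by DESeq2), and limma voom called Cx3cl1 (0.00595% of all genes higher). Those 3 genes were also the ones without overlap between the genotypes, against 5.40% of all genes that were higher without overlap.

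Cx3cl1 was at 3.73, 3.62, 5.30 and 3.85 CPM in WT diaphragm and at 34.4, 12.4 and 37.4 CPM in Mtm1-/y replicates 1, 2 and 4. Every Mtm1-/y library exceeded every WT library, replicate 2 by the least. The log2 fold change was 2.78 ± 0.38 (edgeR adjusted p = 0.26, DESeq2 adjusted p = 5.4e-10). Without Mtm1-/y replicate 2, the library with the most hepatocyte transcripts, edgeR called Cx3cl1 too (log2 fold change 3.13, edgeR adjusted p = 0.022). The Mtm1-/y libraries in that fit held 2203 and 624 CPM of hepatocyte markers. WT replicates 1, 2 and 4 held 20159 to 29992 CPM and WT replicate 3 held 358 CPM. Hepatocyte transcripts thus ran largely with genotype in that fit, and their part was not tested. Cx3cr1 was at 2.35, 0.853, 1.37 and 1.44 CPM against 9.69, 2.64 and 6.99 CPM, with a log2 fold change of 2.12 ± 0.49 (edgeR adjusted p = 0.28, DESeq2 adjusted p = 0.002). Cxcl10 was at 0.264, 0.999, 0.446 and 0.538 CPM against 1.36, 1.75 and 1.67 CPM, the most even levels across the Mtm1-/y libraries. Its log2 fold change was 1.51 ± 0.41 (edgeR adjusted p = 0.29, DESeq2 adjusted p = 0.034). Its DESeq2 call was lost without any 1 of Mtm1-/y replicates 1, 2 and 4 and WT replicates 1 and 4. The DESeq2 call of Cx3cr1 was lost without Mtm1-/y replicate 1.

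Ccl2 and Ccl7 rested on 1 library in this muscle, and DESeq2 gave no adjusted p for either. Ccl2 was at 32.1 CPM in Mtm1-/y replicate 1, but at 1.43 and 2.36 CPM in the other 2, within the WT range of 0.583 to 2.74 CPM. Ccl7 was at 18.4, 0.571 and 1.12 CPM, with WT at 0.333 to 1.20 CPM. Without replicate 1 the log2 fold change of Ccl7 turned from 2.89 to -0.06. The same library held the highest Ccr2, at 37.1 CPM against 5.68 and 18.1 CPM in the other Mtm1-/y libraries and 5.44 to 9.33 CPM in WT, the highest Cx3cr1 and the highest Ccl6. Its monocyte and macrophage markers summed to 910 CPM, against 378 and 592 CPM in the other Mtm1-/y libraries and 362 to 802 CPM in WT. Their part in these levels was not tested.

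Ccl9 did not follow genotype in the diaphragm. It was at 47.7, 35.0, 12.0 and 50.5 CPM in WT and 38.8, 55.4 and 19.2 CPM in Mtm1-/y, with a log2 fold change of 0.08 ± 0.53 (edgeR adjusted p = 0.98). The lowest libraries were WT replicate 3 and Mtm1-/y replicate 4, which also held the fewest hepatocyte transcripts (358 and 624 CPM), and the highest was Mtm1-/y replicate 2, which held the most (37101 CPM). The third library with few hepatocyte transcripts, Mtm1-/y replicate 1 (2203 CPM), was at 38.8 CPM, above WT replicate 2 at 35.0 CPM, which held 20159 CPM. In the liver Ccl9 was at 135 to 227 CPM. The part of liver RNA in the diaphragm levels was not tested. Cx3cl1 and Ccl2 ran otherwise: in the liver they stayed at or under 1.1 and 0.413 CPM, and their highest diaphragm libraries were among the 3 with few hepatocyte transcripts. B cell markers (WT 51.1 to 684 CPM, Mtm1-/y 60.0 to 179 CPM) and T cell markers (2.43 to 65.5 CPM, 3.08 to 3.64 CPM) varied among these libraries as well.

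**Figure D2:**
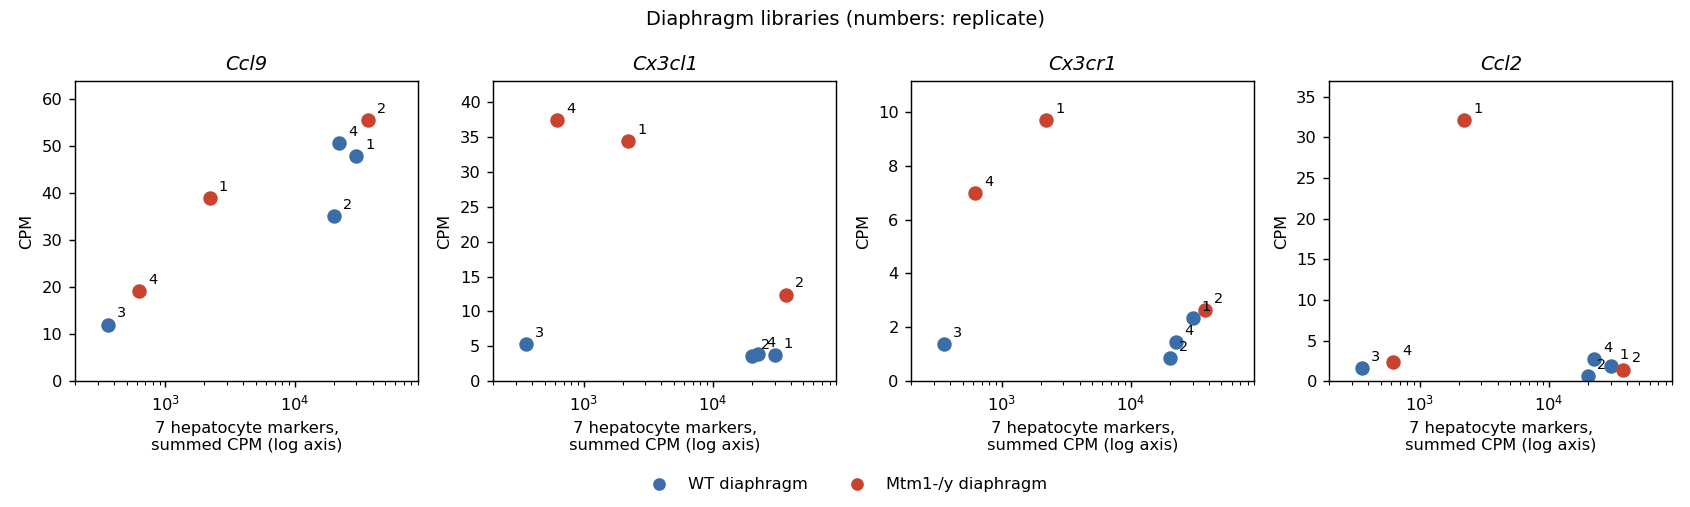
Levels of Ccl9, Cx3cl1, Cx3cr1 and Ccl2 in CPM in the 7 diaphragm libraries (WT blue, Mtm1-/y red, numbered by replicate) against the summed CPM of 7 hepatocyte markers on a log axis. Ccl9 is lowest in WT replicate 3 and Mtm1-/y replicate 4, where the markers are lowest, but is at 38.8 CPM in Mtm1-/y replicate 1 with 2203 CPM of markers, and the highest Cx3cl1, Cx3cr1 and Ccl2 values lie in Mtm1-/y libraries with few hepatocyte transcripts.

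Ccl8, Ccl6 and Cxcl12 overlapped between the genotypes in the diaphragm. Ccl8 was at 0.446 to 1.11 CPM in WT and 0.857 to 1.89 CPM in Mtm1-/y, Ccl6 at 12.2 to 26.0 and 12.4 to 35.2 CPM, and Cxcl12 at 163 to 218 and 94.7 to 185 CPM. Their log2 fold changes were 0.68, 0.12 and -0.30, with edgeR adjusted p of 0.61, 0.97 and 0.73. Ccr2 overlapped too, with a log2 fold change of 1.56 ± 0.55 (edgeR adjusted p = 0.39).

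In the heart 9 of the 10 genes passed the filter on low counts, and none passed edgeR's test (0.00656% of all genes did), DESeq2's (0.453%) or that of limma voom. At an unadjusted p under 0.05, 1 was higher and 2 were lower in Mtm1-/y, against 3.05% and 5.83% of all genes. Cx3cr1 was at 5.43, 6.33, 3.29 and 4.52 CPM in WT heart and 9.75, 5.23, 7.36 and 7.78 CPM in Mtm1-/y, so that 1 library of Mtm1-/y fell within the WT range (log2 fold change 0.62 ± 0.24, edgeR adjusted p = 0.55). Ccl8 and Ccl6 pointed the other way. Ccl8 was at 0.883, 0.733, 0.725 and 1.34 CPM in WT and 0.642, 0.573, 0.380 and 0.355 CPM in Mtm1-/y, without overlap, as for 2.16% of all genes that were lower without overlap (log2 fold change -0.92 ± 0.31, edgeR adjusted p = 0.55).

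Ccl6 was at 15.1, 8.12, 19.7 and 20.2 CPM in WT heart and at 11.6, 7.32, 7.57 and 6.16 CPM in Mtm1-/y. WT replicate 2 sat among the Mtm1-/y libraries, and the log2 fold change was -0.96 ± 0.30 (edgeR adjusted p = 0.55). DESeq2 called Ccl6 lower without WT replicate 2 and again without Mtm1-/y replicate 1. The monocyte and macrophage markers summed to 377 to 521 CPM in WT heart and 383 to 437 CPM in Mtm1-/y, and to 377 CPM in WT replicate 2. Cx3cl1, Ccl2 and Ccl7 had log2 fold changes of 0.25, 0.21 and 0.29, and Ccr2, Ccl9 and Cxcl12 of -0.40, -0.44 and 0.42, with edgeR adjusted p between 0.55 and 0.77. Cxcl10 did not pass the filter on low counts within the heart, with 2 to 11 counts a library in WT and 6 to 19 in Mtm1-/y. Summed over libraries, 43 counts in Mtm1-/y stood against 19 in WT, a ratio of 2.62 (exact 95% interval 1.5 to 4.77, counting error only), and DESeq2, which tested it, gave a log2 fold change of 1.38 (adjusted p = 0.53).

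In the liver 7 of the 10 passed the filter and none differed, also at an unadjusted p under 0.05 (4.24% of all genes were under it), where 0% of all genes passed edgeR's adjusted threshold and 0.135% DESeq2's. Ccl2 was at 0 to 13 counts a library, Ccl7 at 0 to 3 and Ccl8 at 0 to 2, and 3 counts correspond to 0.0954 to 0.145 CPM here. Differences below that level were not detectable at this depth. These 3 genes did not pass the filter, so edgeR did not test larger differences within the liver either, with Ccl2 at up to 0.413 CPM. The 7 log2 fold changes lay between -0.55 for Ccl6 and 0.49 for Cx3cr1, with edgeR adjusted p of 0.97 or more. Ccl6 was lowest in Mtm1-/y replicate 2, at 1.62 CPM against 4.16 to 6.68 CPM in the other Mtm1-/y libraries and 5.85 to 8.47 CPM in WT. The Kupffer cell markers of that library summed to 53.5 CPM, against 181 to 229 CPM in the other Mtm1-/y libraries and 214 to 234 CPM in WT, and their part in the Ccl6 level was not tested.

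**Figure D3:**
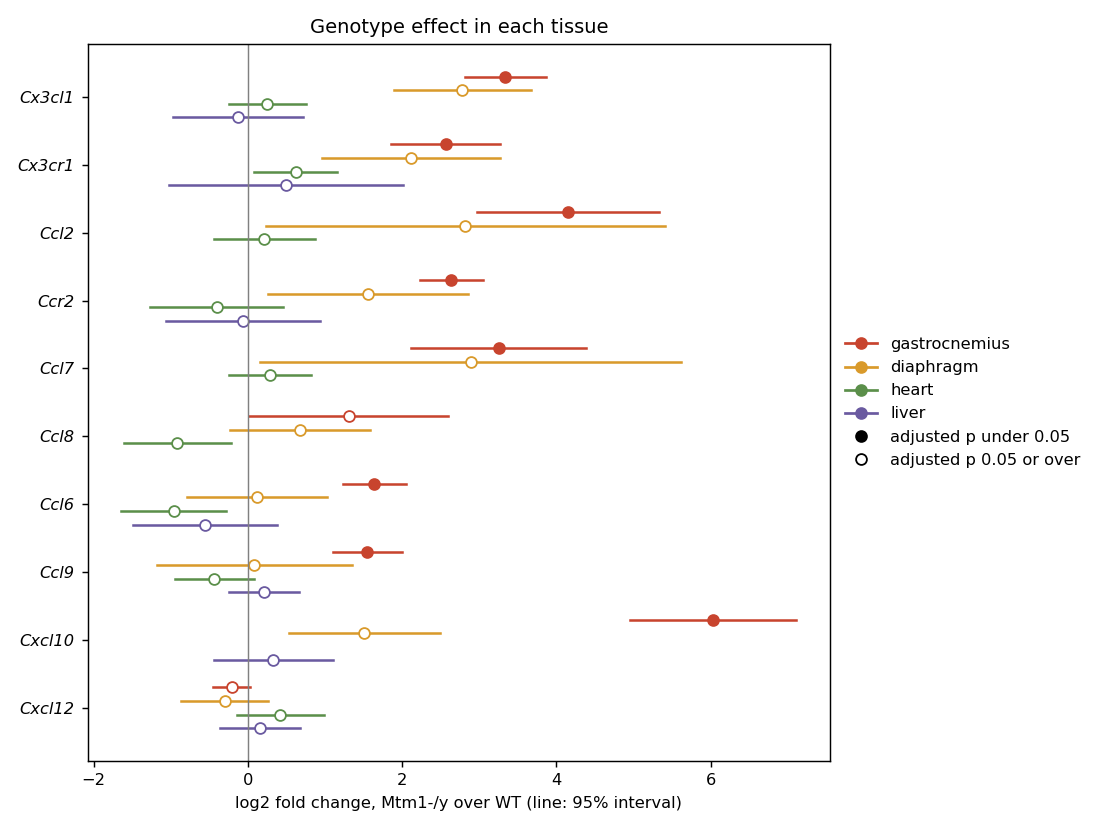
Log2 fold change of Mtm1-/y over WT (x axis) for each of the 10 genes in the 4 tissues, with 95% intervals, filled where the edgeR adjusted p was under 0.05. Only gastrocnemius points are filled, from 1.55 for Ccl9 to 6.03 for Cxcl10, and the diaphragm points of Cx3cl1 (2.78) and Cx3cr1 (2.12) lie close to them with wider intervals.

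Whether the genotype effect differed between tissues was tested directly. The gastrocnemius and heart effects differed for 9 of the 10 genes, all with the higher value in the gastrocnemius, against 9.89% of all genes that differed in that direction. The difference of log2 fold changes ranged from 1.93 ± 0.40 for Cx3cr1 (edgeR adjusted p = 0.0045) to 4.67 ± 0.84 for Cxcl10 (edgeR adjusted p = 0.002). Cxcl10 had not passed the filter on low counts within the heart. It entered this fit through the Mtm1-/y gastrocnemius libraries, where it was high (60 to 218 counts), so its call here is not separate from its rise there. The 9 genes included Ccl8 at 2.21 ± 0.70 (edgeR adjusted p = 0.039), which had not passed in either tissue. Leaving out any 1 of 9 of the 16 libraries ended the Ccl8 call, with values of 1.5 to 2.53 over all 16 fits: WT replicates 1, 2 and 4 and Mtm1-/y replicates 1 and 3 of the gastrocnemius, and WT replicates 1 and 4 and Mtm1-/y replicates 3 and 4 of the heart. Cxcl12 differed by -0.65 ± 0.29 (edgeR adjusted p = 0.13), and passed without WT heart replicate 2 (edgeR adjusted p = 0.023). These contrasts share the gastrocnemius libraries with the ones that follow.

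Against the liver, 6 genes differed, all higher in the gastrocnemius (2.71% of all genes did): Cxcl10 by 5.67 ± 0.63, Ccl2 by 3.86 ± 1.05, Cx3cl1 by 3.44 ± 0.42, Ccr2 by 2.66 ± 0.45, Ccl6 by 2.16 ± 0.46 and Ccl9 by 1.3 ± 0.30 on the log2 scale. The adjusted p (edgeR) was 0.042 for Ccl2 and 0.02 or less for the others. Ccl2 and Ccl7 had not passed the filter on low counts within the liver. They entered this fit through the Mtm1-/y gastrocnemius libraries, where they were high. Ccl2 rests on 0 to 13 counts in the liver, and its call was lost in 13 of the 15 fits that left out 1 library, all but those without Mtm1-/y gastrocnemius replicate 4 or WT liver replicate 1 (values of 3.19 to 4.52 over the 15). Ccl9 lost its call without WT liver replicate 3 (1.04 at the lowest, edgeR adjusted p = 0.053). Cx3cr1 (2.03 ± 0.73, edgeR adjusted p = 0.11) and Ccl7 (4.30 ± 1.29, edgeR adjusted p = 0.062) did not pass. Both passed with library totals (edgeR adjusted p = 0.032 and 0.022), Cx3cr1 also without Mtm1-/y liver replicate 3 (edgeR adjusted p = 0.039), and Ccl7 also with DESeq2 (adjusted p = 0.014) and without Mtm1-/y gastrocnemius replicate 4 (edgeR adjusted p = 0.031).

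Against the diaphragm, only Cxcl10 passed (0.166% of all genes passed in that direction). Its effect was larger in the gastrocnemius by 4.56 ± 0.69 on the log2 scale (edgeR adjusted p = 0.025). Leaving out any 1 of WT gastrocnemius replicates 2, 3 and 4, WT diaphragm replicate 4 and Mtm1-/y diaphragm replicates 1 and 4 ended that call, giving 0 genes, with values of 4.11 to 5.03 over the 15 fits. For Cx3cl1 the difference between the muscles was 0.57, with a 95% interval of -0.41 to 1.54 (edgeR adjusted p = 0.63), and for Cx3cr1 0.45, from -0.84 to 1.75 (edgeR adjusted p = 0.79). The intervals for Ccl2 (-1.48 to 4.14) and Ccl7 (-2.45 to 3.17) were too wide to order the muscles. Ccl6 differed by 1.53 ± 0.44 (edgeR adjusted p = 0.19, DESeq2 adjusted p = 0.047).

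**Figure D4:**
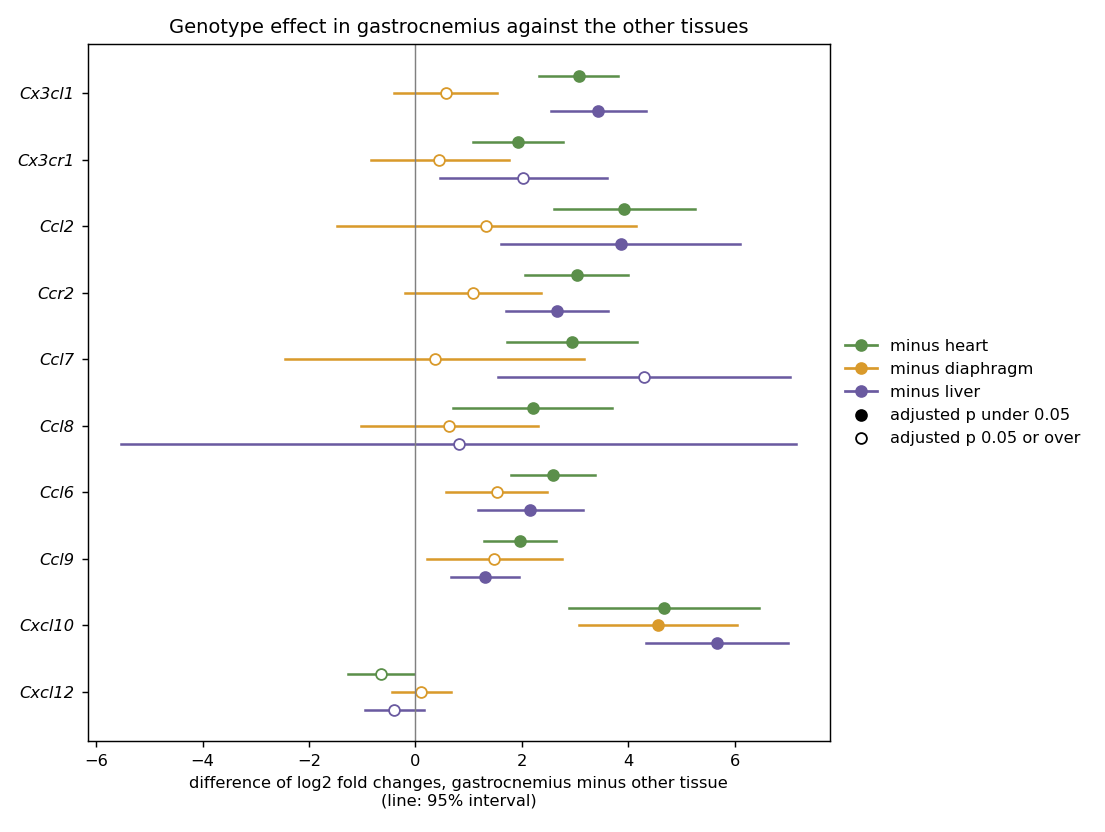
Difference of log2 fold changes, gastrocnemius minus heart, diaphragm or liver, for each of the 10 genes with 95% intervals, filled where the edgeR adjusted p was under 0.05. Filled points number 9 against heart, 6 against liver and 1 against diaphragm (Cxcl10, 4.56), and all lie to the right of 0.

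In WT mice 9 of the 10 genes differed between the 4 tissues, as did 92.5% of all genes (edgeR test over the tissues). The exception was Cxcl12 (edgeR adjusted p = 0.064), with means of 239 CPM in liver, 184 in diaphragm, 152 in heart and 143 in gastrocnemius, and with no pair of neighbours in that order apart. Tissues further apart in the order did differ for Cxcl12: gastrocnemius minus liver was -0.66 and heart minus liver -0.61 on the log2 scale (edgeR adjusted p = 0.023 and 0.034). Cx3cl1 had a full order, with 5.86 ± 1.19 CPM (SD) in heart, 4.12 ± 0.79 in diaphragm, 1.94 ± 0.32 in gastrocnemius and 0.777 ± 0.197 in liver. Each step of it passed (edgeR adjusted p = 0.039, 0.00053 and 1e-04). WT diaphragm replicate 3, with few hepatocyte transcripts, was at 5.30 CPM, within the range of the WT heart libraries (4.63 to 7.39 CPM). The other WT diaphragm libraries were at 3.62 to 3.85 CPM. The part of liver RNA in the step from heart to diaphragm was not tested. Cx3cr1 ran in the same order from 4.89 CPM in heart to 0.402 CPM in liver, its last step not passing (edgeR adjusted p = 0.38).

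Ccr2 was highest in diaphragm and heart (6.93 and 4.29 CPM), which did not differ from each other beyond their spread (edgeR adjusted p = 0.074), followed by gastrocnemius at 1.93 CPM and liver at 1.33 CPM. Ccl2 and Ccl7 were likewise level between diaphragm and heart, at 1.71 and 1.61 CPM for Ccl2 and 0.910 and 0.956 CPM for Ccl7, and lower in the other tissues. Ccl8 was at 0.920 CPM in heart, 0.806 in diaphragm, 0.449 in gastrocnemius and 0.0161 in liver, and the last step alone passed. Ccl6 fell from 20.3 CPM in diaphragm and 15.8 in heart to 6.77 in liver and 2.95 in gastrocnemius.

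Ccl9 was a liver transcript first of all, at 164 ± 48.3 CPM, against 36.3 CPM in diaphragm, 13.1 in heart and 3.86 in gastrocnemius, each step passing. WT diaphragm replicate 3, with few hepatocyte transcripts, was at 12.0 CPM, within the range of the WT heart libraries (8.58 to 15.8 CPM), and the other 3 were at 35.0 to 50.5 CPM. Cxcl10 was highest in liver at 1.66 CPM, then diaphragm at 0.562, with heart (0.134) and gastrocnemius (0.0495) not apart. In all, 16 of 30 neighbouring steps passed. For 5 genes, the gastrocnemius of WT mice held the lowest mean of the 4 tissues. It was apart from the next tissue for Ccl6 and Ccl9 (edgeR adjusted p = 0.0056 and 0.0014). For Ccl2, Cxcl10 and Cxcl12 it was not (edgeR adjusted p = 0.95, 0.15 and 0.87). Shares over all genes are not given for these counts.

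The 2 genes nearest to each member in profile across the 30 libraries (root mean square difference of z-scored log2 CPM, among 13171 genes) are given as a description, since tissue, genotype and depth are shared by all. Cx3cl1 lay nearest to Nfkb2 (0.266) and Plekhh2 (0.285), Cx3cr1 to Cd83 (0.373) and Plekho2 (0.398), and Ccr2 to Vwa5a (0.444) and Serpinb1a (0.445). Ccl7 lay nearest to Ccl2 (0.350) and Btg2 (0.444), and Ccl2 to Vwa5a (0.500) and Anxa5 (0.540). Ccl6 lay nearest to Myo1g (0.364) and Coro1a (0.368), leukocyte cytoskeleton genes, with Lyz2 (0.404) and Ncf1 (0.408) also among its 5 nearest. Ccl9 lay nearest to Serpina3f (0.155) and Serpina3n (0.160), Ccl8 to Apcdd1 (0.312) and Loxl1 (0.342), Cxcl10 to Anxa4 (0.500) and Otulin (0.533), and Cxcl12 to Als2cl (0.534) and Txnrd2 (0.557).

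Other genes of the chemokine system moved less uniformly in the gastrocnemius. Of 6 other CC chemokines tested, Ccl12 rose and Ccl25 and Ccl11, an eosinophil attractant, fell. Ccl12, a mouse Ccr2 ligand of the Ccl2 cluster, had 8 counts over the WT libraries and 73 over the Mtm1-/y libraries, a ratio of 7.84 (exact 95% interval 3.78 to 18.8, edgeR adjusted p = 0.0047). Of 5 other CXC chemokines tested, Cxcl16 rose by 1.06 and Pf4, a platelet and macrophage product, by 0.99, and Cxcl14 passed at -0.32, which became 0.02 when library totals set the scale. The median log2 fold changes of these lists were 0.01 and -0.20.

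Among receptors, Ccr1, which binds Ccl6 and Ccl9, rose from 0.347 to 1.17 CPM (log2 fold change 1.80, edgeR adjusted p = 0.017). Of 5 atypical receptors, which bind chemokines without signalling through G proteins, none rose, and Ackr3, a scavenger of Cxcl12, and Ackr2 fell by 0.56 and 1.23 on the log2 scale. With library totals as the scale neither passed, nor did Ccl11.

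Among 7 proteases that process chemokines, Ctss, which can shed Cx3cl1, rose from 1.96 to 9.86 CPM (log2 fold change 2.33, edgeR adjusted p = 4.2e-05), and Mmp12 rose with 6 counts in WT against 87 (ratio 12.5, exact 95% interval 5.50 to 34.9, edgeR adjusted p = 0.0063). Of 5 monocyte growth factors and receptors tested, Csf1r, the receptor that macrophages need to survive, rose by 1.06, Csf2ra by 1.72 and Csf2rb by 1.14. Of 9 leukocyte adhesion molecules, 5 rose, among them Itgb2 (1.65), Selp (1.46) and Icam1 (0.92), and Itga4 fell by 0.63.

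The interferon-inducible genes stood at the level of all genes. Only Irgm1 of 14 tested rose, by 0.35 (edgeR adjusted p = 0.034), and the median log2 fold change was -0.09, against 0.02 over all genes tested. Of 6 genes tested from a list of NF-kB-inducible genes, 4 rose: Nfkb2 (2.01, edgeR adjusted p = 4.2e-05), Nfkbie (2.49), Birc3 (1.12) and Relb (1.05). Nfkbia, named here after its value was seen, fell by 0.39, a fall that did not pass with library totals. The median of that list was 1.09. The part of interferon or NF-kB in the Cxcl10 level was not tested.

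**Figure D5:**
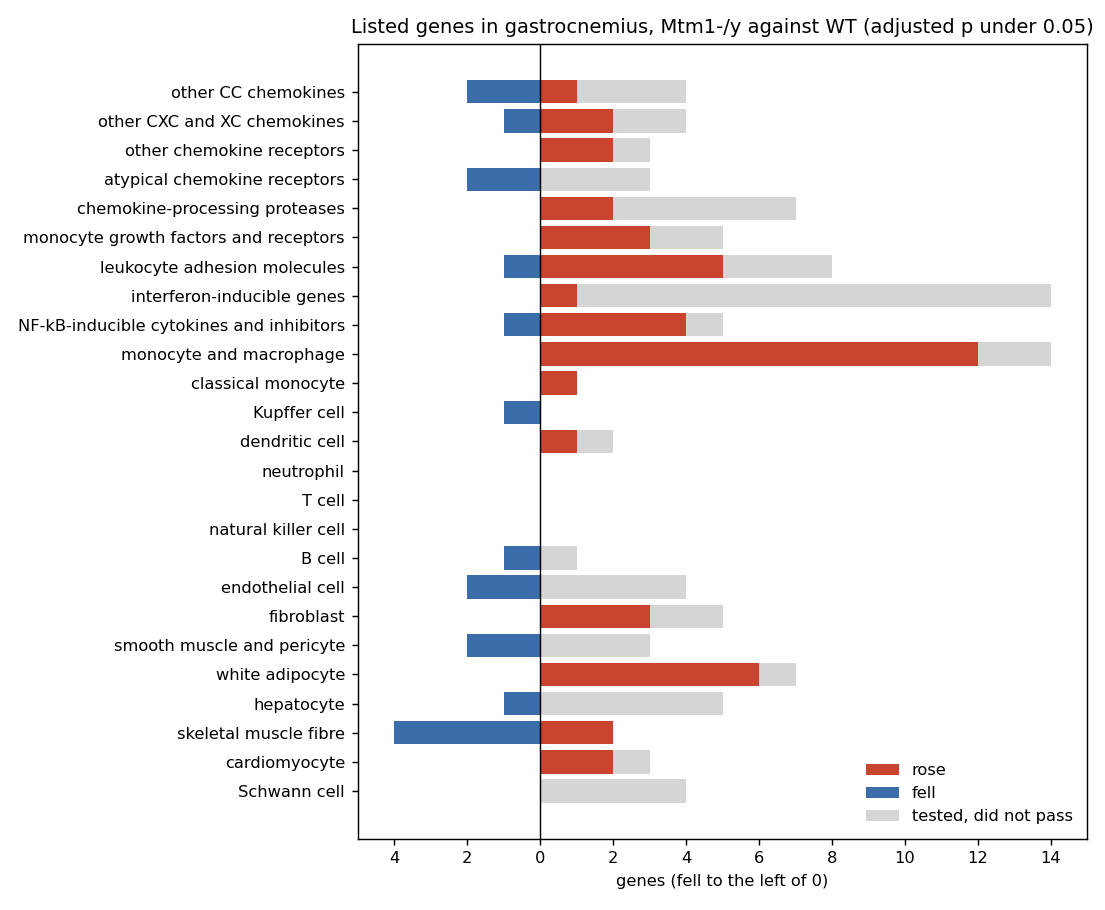
Number of listed genes that rose (red), fell (blue, left of 0) or were tested without passing (grey) in the gastrocnemius, for 9 lists of the chemokine system and 16 lists of cell type markers. The monocyte and macrophage list has 12 of 14 red, and the interferon-inducible list 1 of 14.

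Markers of leukocytes and other cells moved in the same libraries. Of 14 monocyte and macrophage markers 12 rose in the gastrocnemius, Mpeg1 by 2.63, Cd68 by 2.33, Lyz2 by 1.87 and Cd14 by 1.81 on the log2 scale, and none was at 0. Their sum was 69.1 to 120 CPM in WT and 195 to 234 CPM in Mtm1-/y. Of 2 dendritic cell markers tested, Itgax rose by 3.18 while Zbtb46 had a log2 fold change of -0.26 (edgeR adjusted p = 0.1), and the sum of that list overlapped between genotypes (WT 13 to 14.9 CPM, Mtm1-/y 11.4 to 14.3 CPM). Of 2 B cell markers tested, Ighm fell by 3.48 (mean 74.8 CPM in WT, 6.63 CPM in Mtm1-/y) and made up most of the B cell sum, while Cd79b had a log2 fold change of -0.01 (edgeR adjusted p = 0.99). Neutrophil, T cell and natural killer cell markers were left out by edgeR's filter on low counts. DESeq2 called 3 of 7 neutrophil markers higher, the neutrophil sum being 0.162 to 0.640 CPM in WT and 0.624 to 2.62 CPM in Mtm1-/y, and called no T cell or natural killer cell marker.

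Among other cells, 6 of 7 white adipocyte markers and 3 of 5 fibroblast markers rose, 2 of 6 endothelial and 2 of 5 smooth muscle and pericyte markers fell, and 4 of 6 muscle fibre markers fell while 2 rose. Of 3 cardiomyocyte markers tested 2 rose, 1 hepatocyte marker of 6 fell, and no Schwann cell marker of 4 passed, Mbp among them (log2 fold change 0.67, edgeR adjusted p = 0.3). Of 6 classical monocyte markers only Fn1 was tested. It rose by 1.12, from a mean of 142 CPM to 305 CPM, and made up most of that list's sum. Of 5 Kupffer cell markers only Timd4 was tested, and it fell by 1.02, a fall that DESeq2 did not call. With library totals as the scale, the falls of Timd4, of Cdh5 and Tek (endothelial) and of Rgs5 and Myh11 (smooth muscle and pericyte) did not pass. How far any of these accounts for the levels of the 10 genes was not tested. In diaphragm, heart and liver no gene of any list passed edgeR's test. The lists hold 195 genes of the count table, and a gene that stands in several lists is counted in each. DESeq2 called 12 higher and 1 lower in the diaphragm, where it called 1.70% of all genes higher. It called 1 higher and 8 lower in the heart, and 1 higher and 1 lower in the liver. Of all genes, it called 0.453% in the heart and 0.135% in the liver in either direction. Of the calls in the diaphragm 3 were fibroblast markers, whose sum was 1560 to 3162 CPM in WT and 3303 to 6652 CPM in Mtm1-/y, without overlap, and of the lower calls in the heart 6 were white adipocyte markers, with a median log2 fold change of -2.68 over the 7 tested. The part of these cells in the levels of the 10 genes was not tested.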

How the data were processed

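Total RNA was extracted with TRI reagent from whole organs, and libraries were made with a stranded poly-A protocol. According to the labels and the study's methods, the authors used cutadapt 1.10 for trimming, STAR 2.5.3a for alignment (mm10) and HTSeq 0.6.1p1 for gene counts of uniquely aligned reads. The deposited values are raw read counts, 1 column for each of 30 libraries.

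All further steps used R 4.3.3. Each tissue was fitted separately with edgeR 4.0.16 (quasi-likelihood F test) after filterByExpr with a count minimum of 10 and TMM scaling. Differences between tissues and between WT tissues were contrasts in joint fits. DESeq2 1.42.0 and limma 3.58.1 (voom with sample weights) were alternatives, beside those given in the closing section. Intervals on log2 fold changes used the total degrees of freedom of each fit, the residual ones plus those gained by pooling the spread over genes. The fits were tested on simulated counts. A minimum of recovered changes was required of every comparison except genotype in the diaphragm, whose recovery is not given here. Groups were taken from the labels of each column.

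All 10 members are named in every tissue. From each of 25 gene lists, the genes that passed in the gastrocnemius are named by smallest p, at most 4 a list (the 2 most abundant where none passed), and the genes nearest to each member in profile are named too. Results for some genes that this rule would name are not reported here. The members and the lists were chosen with earlier results of these data known, so no p was adjusted over a list alone. PCR duplicates were not marked by molecular identifiers, so intervals on counts cover counting error only.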

Additional observations from a re-analysis of the deposited data

Results flagged for a closer look

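Of 60 member and group combinations with 4 libraries, 5 had 1 library far from the other 3 by Dixon's ratio of the gap to the range, where chance gives about 1 in 20. Cx3cl1 in WT diaphragm replicate 3 was at 5.30 CPM against 3.62 to 3.85 CPM (ratio 0.863), in the WT library with the fewest hepatocyte transcripts. Cx3cl1 in Mtm1-/y liver replicate 3 was at 1.1 CPM against 0.555 to 0.604 CPM (ratio 0.910). Ccl8 in WT gastrocnemius replicate 3 was at 0.584 CPM against 0.393 to 0.420 CPM (ratio 0.859), and in Mtm1-/y liver replicate 3 it had 2 counts where the other 3 had none (ratio 1). Cxcl10 in WT gastrocnemius replicate 1 had 3 counts where the others had 1 (ratio 0.870). The last 2 rest on counts of at most 3.

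The genotype effect differed between tissues in 16 tests of a difference of log2 fold changes (edgeR, adjusted p under 0.05). Gastrocnemius minus heart was 3.07 for Cx3cl1, 1.93 for Cx3cr1, 3.92 for Ccl2, 2.95 for Ccl7, 2.21 for Ccl8, 3.03 for Ccr2, 2.58 for Ccl6, 1.97 for Ccl9 and 4.67 for Cxcl10. Gastrocnemius minus liver was 3.44 for Cx3cl1, 3.86 for Ccl2, 2.66 for Ccr2, 2.16 for Ccl6, 1.3 for Ccl9 and 5.67 for Cxcl10. Gastrocnemius minus diaphragm was 4.56 for Cxcl10. All 16 share the gastrocnemius libraries. Cxcl10 in the heart and Ccl2 in the liver had not passed the filter on low counts within those tissues.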

How the results depend on the processing

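The 8 calls in the gastrocnemius remained in every fit, and none of the 10 genes was called by edgeR in heart or liver under any alternative. In the diaphragm the count of 0 became 3 with DESeq2, 1 with limma voom, 4 with a fit on all 30 libraries (Cx3cl1, Cx3cr1, Ccl2 and Ccl7) and 0 to 1 without 1 library. The 3 DESeq2 calls in the diaphragm ranged from 1 (without Mtm1-/y replicate 1) to 5 (without replicate 2), and the 0 in the heart from 0 to 1 (Ccl6). The 5 were Cx3cl1, Cx3cr1, Ccr2, Ccl2 and Ccl7, while Cxcl10 lost its call. Cxcl10 also lost it without Mtm1-/y replicate 1 or 4 or WT replicate 1 or 4. Ccl2 and Ccl7 rest on Mtm1-/y replicate 1, and with all diaphragm libraries DESeq2 gave them no adjusted p. Against the diaphragm, the 1 difference became 2 with DESeq2 and 0 with the replicate block, and 0 to 1 without 1 library. Against heart and liver the counts stayed within 1.5 times of 9 and 6, but single calls were lost. Against the heart, Ccl8 lost its call with no filter (adjusted p = 0.059), with limma voom (0.089) and with all 30 libraries (0.05), and Ccl7 with all 30 libraries (0.076), while Cxcl12 passed at -0.66 with limma voom (0.041). Against the liver, Ccl2 lost its call with limma voom (0.2) and all 30 libraries (0.13), and Ccl9 with all 30 libraries (0.13). The 9 genes that differed between WT tissues became 10, with Cxcl12, under DESeq2, limma voom, the replicate block, all 30 libraries and library totals. They also became 10 in some fits without 1 library. Correlations of same-numbered deviations ran from -0.74 to 0.59 between the genotypes within a tissue. Between the gastrocnemius and another tissue of the same genotype they ran from -0.3 to 0.41. With so few libraries a group, these values do not settle whether the replicate numbers pair the libraries. Besides the calls above, the replicate block ended those of Ccl8 against the heart (adjusted p = 0.11) and of Ccl2 and Ccl6 against the liver (0.18 and 0.06).

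For the 10 genes, signs turned only for values that had not passed. With the replicate block, Ccl6 in the diaphragm (0.12) became -0.16, Ccl9 there (0.08) -0.30 and the Ccl8 difference from the diaphragm (0.64) -0.17. With limma voom, Ccl9 in the diaphragm became -0.19, Ccr2 in the liver (-0.06) 0.01, Cxcl12 in the liver (0.16) -0.01, and the differences from the diaphragm of Ccl7 (0.36) -0.49 and of Cxcl12 (0.11) -0.06. With library totals, chosen after seeing the data, Cxcl12 in the gastrocnemius (-0.21) became 0.13 and its difference from the liver (-0.40) 0.02. Without 1 library, the lowest and highest values were -0.06 and 3.43 for Ccl7 in the diaphragm, -0.39 and 0.40 for Ccl6 in the diaphragm, -0.32 and 0.41 for Ccl9 in the diaphragm, -0.72 and 0.02 for Ccr2 in the heart, -0.33 and 0.18 for Ccr2 in the liver, -0.03 and 0.35 for Cxcl12 in the liver, -0.18 and 3.33 for the Ccl7 difference from the diaphragm, -0.07 and 1.04 for the Ccl8 difference from the diaphragm, -0.13 and 0.30 for the Cxcl12 difference from the diaphragm and -1.24 and 3.32 for the Ccl8 difference from the liver. The causes were not tested. Low counts, such as those of Cxcl10 in WT gastrocnemius and Ccl2, Ccl7 and Ccl8 in the liver, limit what the differences of these genes can show.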
